A study of Mus musculus with 8 samples.

Results

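The circadian clock genes described here are 10 genes chosen by name, Arntl, Clock, Per1, Per2, Per3, Cry1, Cry2, Nr1d1, Nr1d2 and Dbp, out of 50462 gene identifiers in the count table. All 10 were found, and all 10 had enough counts to be tested. They were measured by RNA-seq in the cartilage caps of the medial knee, dissected from single male C57BL/6J mice of wild-type genotype. The 4 naive mice had no surgery and were sampled at day 0, at 11 weeks of age. The 4 DMM mice were sampled at day 42, at 17 weeks of age, after the medial meniscus of the left knee had been destabilised under isoflurane with buprenorphine for pain relief. DMM, the destabilisation of the medial meniscus by cutting the ligament that holds it to the tibia, is a model of post-traumatic osteoarthritis. No sham-operated mice were analysed here, so surgery, its drugs and the added age cannot be told apart, and although the mice were kept on a daily cycle of light and dark, the time of day at which they were killed is not given in the sources used here.

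The clock is a feedback loop of transcription that runs in nearly every cell over about a day. CLOCK and BMAL1 (the product of Arntl) bind E-boxes and switch on the Per, Cry, Nr1d and Dbp genes, and the PER and CRY proteins then hold CLOCK and BMAL1 back. The NR1D proteins, also called REV-ERB, repress Arntl through ROR elements, while DBP acts on D-boxes, which are found in Per genes. Arntl and E-box genes such as Dbp therefore peak at opposite times of day, so that a single time of sampling catches each gene at its own phase. Chondrocytes hold a clock of their own, and mice without Bmal1 in these cells lose cartilage as adults.

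The start regions of the genes were searched for the elements on which this loop runs. At least 1 RefSeq window on GRCm38.p6, from 250 bases before to 50 after the start, was found for 9 of the 10 genes, with 13 windows in all. The letters searched, on both strands, were CACGTG for the E-box, CACGTT for the weaker E-prime box, TTANGTAA for the D-box and TAGGTCA for the core of the ROR element, which occur in 7.15%, 4.68%, 2.32% and 2.61% of all 32851 such windows. At least 1 of these runs of letters lay in the windows of 6 genes. The shares hold for 1 element and 1 window, so they are no background for that count. The stretches that hold a match are printed from 5′ to 3′ on the strand of the gene, with the match in capitals, to show where these letters lie.

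The Per3 stretch (chr4:151044666-151044915, minus strand) holds the letters of a D-box at 205 and 158 bases before the start, with the same letters in both. The Cry1 stretch (chr10:85185055-85185304, minus strand) holds an E-prime box, read on the opposite strand, at 79 and an E-box at 60 bases before the start.
Per3: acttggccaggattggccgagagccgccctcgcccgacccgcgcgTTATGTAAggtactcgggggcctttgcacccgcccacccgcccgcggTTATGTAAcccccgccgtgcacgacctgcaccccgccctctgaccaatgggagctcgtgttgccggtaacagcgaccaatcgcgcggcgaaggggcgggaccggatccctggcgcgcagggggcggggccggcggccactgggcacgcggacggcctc
Cry1: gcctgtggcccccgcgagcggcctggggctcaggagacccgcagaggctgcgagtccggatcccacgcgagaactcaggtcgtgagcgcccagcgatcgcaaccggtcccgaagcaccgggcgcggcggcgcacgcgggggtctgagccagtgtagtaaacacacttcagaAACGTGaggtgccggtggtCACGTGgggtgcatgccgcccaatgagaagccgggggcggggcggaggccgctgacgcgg

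The Per1 stretch (chr11:69098699-69098948, plus strand) lies before a RefSeq start within the annotated gene and holds an E-box at 166 bases. The Cry2 stretch (chr2:92434070-92434319, minus strand) holds an E-prime box at 166 bases and the Nr1d1 stretch (chr11:98775378-98775627, minus strand) an E-prime box at 28 bases, both read on the opposite strand.
Per1: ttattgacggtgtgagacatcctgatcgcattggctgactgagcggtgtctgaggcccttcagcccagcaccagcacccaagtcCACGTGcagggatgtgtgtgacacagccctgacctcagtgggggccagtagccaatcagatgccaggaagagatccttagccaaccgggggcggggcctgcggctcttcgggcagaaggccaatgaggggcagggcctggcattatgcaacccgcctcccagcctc
Cry2: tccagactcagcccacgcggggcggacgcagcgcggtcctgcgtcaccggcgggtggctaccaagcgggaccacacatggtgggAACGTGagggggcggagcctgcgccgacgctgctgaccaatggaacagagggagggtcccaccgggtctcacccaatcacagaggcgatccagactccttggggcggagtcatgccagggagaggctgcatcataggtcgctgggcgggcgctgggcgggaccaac
Nr1d1: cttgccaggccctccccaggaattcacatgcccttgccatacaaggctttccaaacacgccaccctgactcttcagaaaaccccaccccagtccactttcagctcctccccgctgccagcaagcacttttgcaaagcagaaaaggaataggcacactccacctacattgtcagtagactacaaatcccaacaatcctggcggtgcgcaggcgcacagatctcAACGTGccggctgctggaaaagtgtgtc

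For Arntl, the gene that the NR1D proteins repress, the letters of a ROR core begin at base 31 from the second of its 2 RefSeq starts, which lies inside the annotated gene, and 27 bases around it (chr7:113207531-113207557, plus strand) are shown.
Arntl: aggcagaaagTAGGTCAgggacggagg

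The windows of Dbp, Nr1d2 and Clock, the other window of Per1 and the first of Arntl held none of these letters, which says nothing of elements outside them. No 2 matches overlapped. A match is a run of letters and was not tested as a binding site.

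Of the 10 clock genes, 8 had a positive log2 fold change of DMM over naive and 2, Arntl and Cry1, a negative one. Per1 was among the positive ones, but its interval held 0. A gene was called when its adjusted p was 0.05 or less and its change 1.5-fold or more (DESeq2 Wald test over the whole table, Benjamini-Hochberg adjustment). In all, 6 were called higher in DMM (Dbp, Nr1d2, Nr1d1, Per2, Per3 and Cry2) and 0 lower, whereas 13.7% of all 17760 genes tested were called, 7.75% as higher and 5.92% as lower. At the adjusted p alone the count was 7, with Clock added, and 4010 of the 17760 genes tested passed. Naive and DMM libraries did not overlap, with DMM above naive, for 6 genes, against 11.9% of all genes tested, and with DMM below naive for 0 genes, against 10.3%. The median log2 fold change was 0.65 for the clock genes and -0.02 for all genes tested. With libraries scaled by their total count these medians were 0.80 and 0.14.

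**Figure D1:**
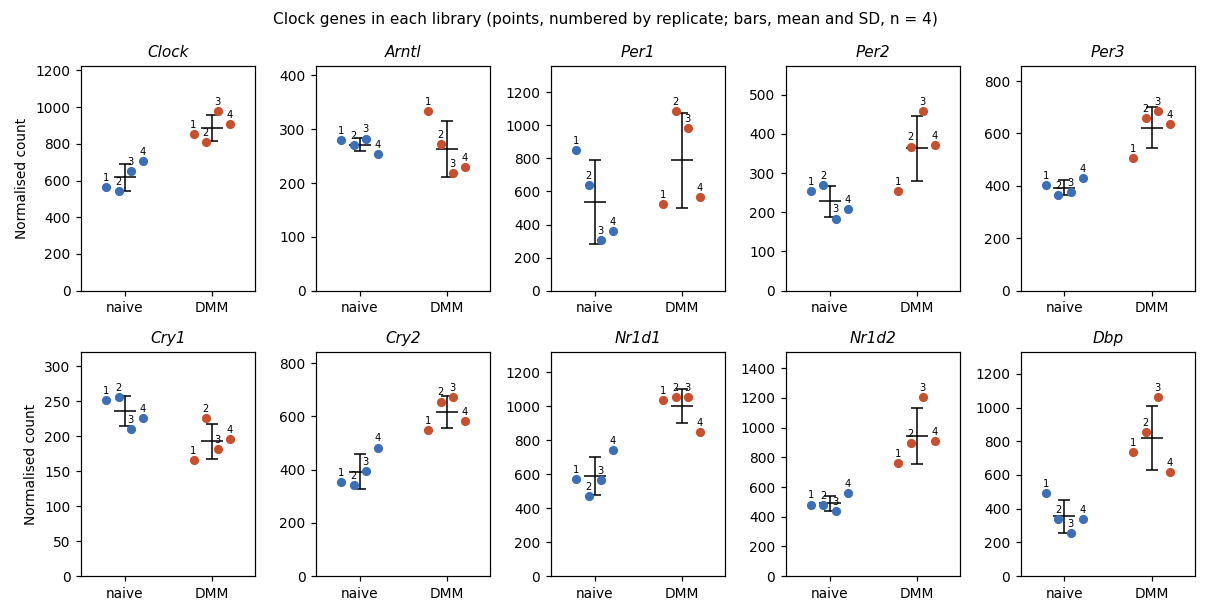
Normalised counts (y axis, counts divided by the size factor of the library, from 0) of the 10 clock genes in each naive and DMM library (x axis). Points are libraries numbered by replicate, and bars are the mean and SD of 4 mice. The groups are apart for Clock, Per3, Cry2, Nr1d1, Nr1d2 and Dbp and overlap for Arntl, Per1, Per2 and Cry1.

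Of the activators, Clock was higher in DMM by less than 1.5-fold and Arntl did not differ detectably. Clock (chromosome 5, 76209868 to 76304792, GRCm38, 6 transcripts) encodes the partner of BMAL1. Its normalised counts, which are counts divided by a size factor per library, were 565, 544, 651 and 706 in naive replicates 1 to 4 and 852, 809, 977 and 906 in DMM replicates 1 to 4. Every DMM library lay above every naive library. Its fitted log2 change was 0.52 (SE 0.12, DESeq2 adjusted p = 0.000381), a 1.44-fold difference. Clock passed the fold threshold with total count scaling, at 0.67, and without naive replicate 4, at 0.59.

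Arntl (chromosome 7, 113207465 to 113314126, 6 transcripts) had 279.7, 270.1, 283 and 254 normalised counts in naive and 333, 273, 218 and 229 in DMM libraries. The naive libraries lay close together, at 272 ± 12.9 (SD, n = 4), and the DMM libraries lay on both sides of them, at 263 ± 52.3 (SD, n = 4). DMM over naive came to -0.04 on the log2 scale (SE 0.16, DESeq2 adjusted p = 0.891), with a 95% interval of -0.36 to 0.27, so a difference as large as that of Clock is outside the interval. Its sign was the opposite with total count scaling and without DMM replicate 3 or 4.

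The Per genes encode the proteins that, with CRY, repress CLOCK and BMAL1. Per3 (chromosome 4, 151003652 to 151044665, 5 transcripts), whose start region carries the D-box letters shown above, had 402, 366, 377 and 429 normalised counts in naive and 508, 658, 685 and 635 in DMM libraries. All DMM libraries lay above the naive range, and the lowest was replicate 1. The log2 fold change was 0.66 (SE 0.13, DESeq2 adjusted p = 1.99e-05), a 1.58-fold rise, and the call was made in all 8 fits that left out a library.

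Per2 (chromosome 1, 91415982 to 91459324, 2 transcripts) had 254, 269, 184 and 207 normalised counts in naive and 255, 368, 458 and 372 in DMM libraries. DMM replicate 1 stood within the naive range and the other DMM libraries above it. Its fitted log2 change was 0.67 (SE 0.20, DESeq2 adjusted p = 0.00668). The rise fell below 1.5-fold without naive replicate 3, at 0.57, and without DMM replicate 3, at 0.54, so the call rests on those mice.

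Per1 (chromosome 11, 69095217 to 69109960, 6 transcripts) spread the most of the 10 genes. It had 849.5, 637, 304 and 359 normalised counts in naive and 522, 1085, 980.4 and 566 in DMM libraries. The highest naive library held 2.79 times the count of the lowest and the highest DMM library 2.08 times, and the groups overlapped. DMM over naive came to 0.55 on the log2 scale (SE 0.43, DESeq2 adjusted p = 0.398), with a 95% interval of -0.29 to 1.39 that holds both no difference and a rise as large as that of Dbp. Without naive replicate 1 the value was 0.86 and past the threshold (DESeq2 adjusted p = 0.0301).

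The cryptochromes parted, with Cry2 called higher in DMM and Cry1 not called. Cry2 (chromosome 2, 92403646 to 92434043, 4 transcripts) had 354, 342, 394 and 483 normalised counts in naive and 547, 656, 674 and 582 in DMM libraries, with no overlap. Its log2 fold change was 0.65 (SE 0.14, DESeq2 adjusted p = 0.000159), and it was called in all 8 fits that left out a library.

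Cry1 (chromosome 10, 85131700 to 85185064, 4 transcripts), with the E-box and E-prime box letters in its start region, had 252, 257, 211 and 226 normalised counts in naive and 167, 226, 182 and 197 in DMM libraries. Of the DMM libraries, only replicate 2 reached the naive range. The log2 fold change was -0.30 (SE 0.15, DESeq2 adjusted p = 0.151), with a 95% interval of -0.59 to -0.00064 before adjustment. The interval of Cry1 and that of Cry2, from 0.36 to 0.93, have no value in common.

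The ratio of the cryptochromes within a library, which no scaling factor changes, separated the groups. The log2 ratio of Cry2 to Cry1 counts was between 0.41 and 1.10 in naive and between 1.54 and 1.89 in DMM libraries, a difference in means of 0.95. These genes differ in length, so the ratio compares libraries and not the amounts of the transcripts.

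Nr1d1 and Nr1d2 encode REV-ERB alpha and beta, nuclear receptors that bind heme and repress Arntl. Nr1d1 (chromosome 11, 98767932 to 98775333, 2 transcripts) had 572, 474, 567 and 743 normalised counts in naive and 1036, 1056, 1057 and 850.2 in DMM libraries. DMM replicate 4 was the lowest of its group and still lay above all naive libraries. Its fitted log2 change was 0.76 (SE 0.15, DESeq2 adjusted p = 1.72e-05).

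Nr1d2 (chromosome 14, 18204054 to 18239127, 4 transcripts) had 482, 482, 437 and 559 normalised counts in naive and 764, 899, 1208 and 909 in DMM libraries. The groups did not overlap, and DMM replicate 3 was the highest. DMM over naive came to 0.95 on the log2 scale (SE 0.16, DESeq2 adjusted p = 1.79e-07), a 1.93-fold rise. Both Nr1d genes were called in all 8 fits that left out a library, and their log2 ratio within a library, Nr1d2 to Nr1d1, differed between group means by 0.16 with overlapping groups. Arntl, the gene they repress, is the member with the smallest absolute change.

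Dbp (chromosome 7, 45705088 to 45710203, 5 transcripts), a PAR-domain factor that carries the rhythm to output genes, had the largest change of the 10. Its normalised counts were 491, 341, 256 and 339 in naive and 738, 854, 1064 and 618 in DMM libraries. The highest naive library was replicate 1, and it lay below the lowest DMM library, replicate 4. The log2 fold change was 1.20 (SE 0.22, DESeq2 adjusted p = 1.78e-06), a 2.29-fold rise, and ranged from 1.04 to 1.39 over the 8 fits that left out a library, with the call made in each.

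**Figure D2:**
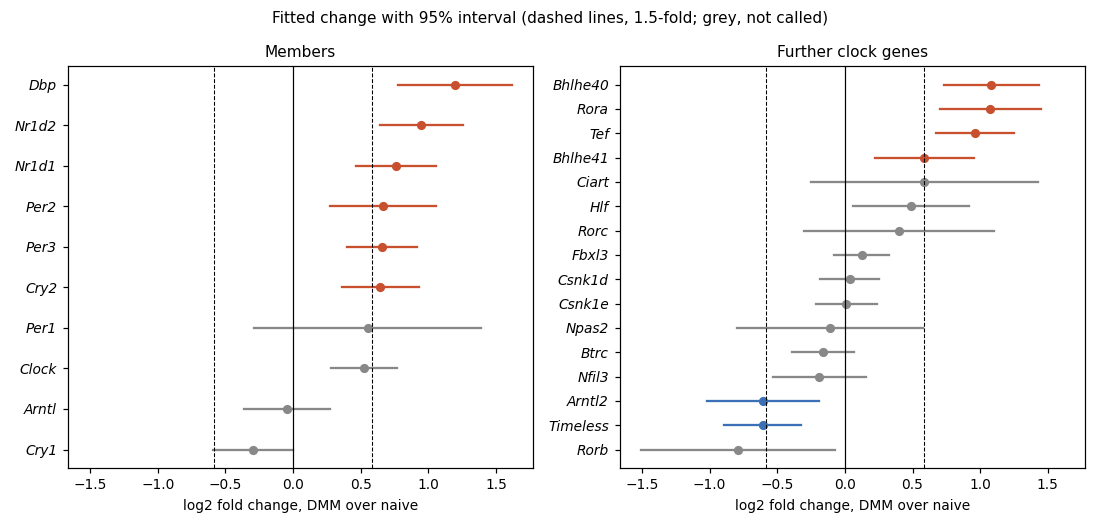
Log2 fold change of DMM over naive (x axis) with its 95% interval for the 10 clock genes (left) and the 16 further clock genes tested (right). Dashed lines mark 1.5-fold, and colour marks genes called higher or lower, with grey for genes not called. Dbp has the largest value on the left, at 1.20, and Bhlhe40 on the right, at 1.08.

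Dbp and Arntl peak at opposite phases of the clock, and their ratio within a library gives the balance of the arms with no scaling. The log2 ratio of Dbp to Arntl counts was 0.81, 0.33, -0.14 and 0.42 in naive and 1.15, 1.64, 2.29 and 1.43 in DMM libraries. The groups did not overlap, and their means differed by 1.27, with 1.05 to 1.43 when a library was left out. The mean of Per3, Nr1d1, Nr1d2 and Dbp set against that of Arntl and Clock differed by 0.66, with naive libraries between -0.13 and 0.28 and DMM libraries between 0.47 and 1.09. All genes on the first side of this balance were called higher, and Per1, Per2, Cry1 and Cry2 were left out. Its separation of the groups thus follows from those calls and is no second view of the clock. The ratio of Per2 to Per3 did not move in the mean, with a difference of -0.00084 and overlapping groups. No test was run on these ratios.

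**Figure D3:**
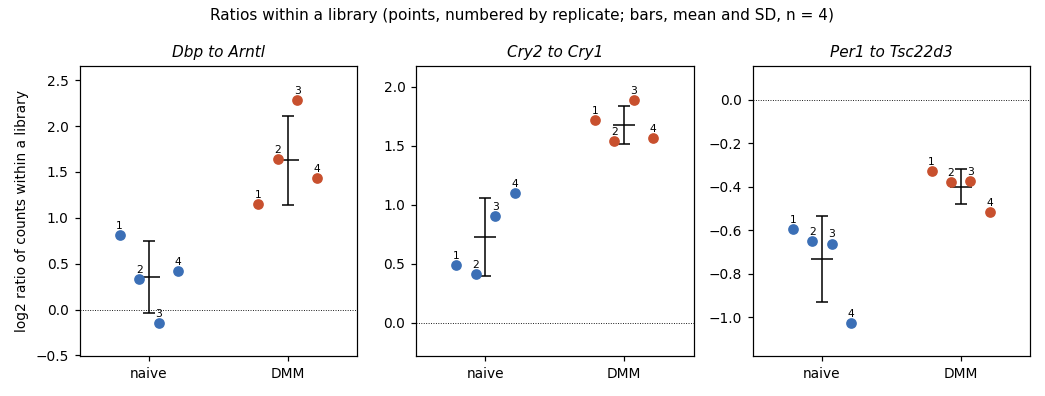
Log2 ratio of counts within a library (y axis) for Dbp to Arntl, Cry2 to Cry1 and Per1 to Tsc22d3 in naive and DMM mice (x axis). Points are libraries numbered by replicate, and bars are the mean and SD of 4 mice. The groups are apart in each panel, with Dbp to Arntl at -0.14 to 0.81 in naive and 1.15 to 2.29 in DMM libraries.

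The mice of a group did not carry the clock genes at equal levels. DMM replicate 3 had the highest count of the DMM libraries for 7 genes (Clock, Per2, Per3, Cry2, Nr1d1, Nr1d2 and Dbp) and the lowest for Arntl. DMM replicate 1 had the highest Arntl and the lowest Per1, Per2, Per3, Cry1, Cry2 and Nr1d2 of its group. Among naive mice, replicate 3 was lowest for Per1, Per2, Cry1, Nr1d2 and Dbp. The SD of log2 counts within groups was 0.62 for Per1, 0.36 for Dbp and 0.31 for Per2. It was between 0.15 and 0.22 for the other 7 genes, near the median of 0.18 over the 11039 genes whose mean count was 100 or more. Only 2.19% of those genes spread more than Per1, 10.2% spread more than Dbp and 15.5% more than Per2.

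After the mean of each group was subtracted, Arntl and the NR1D gene Nr1d2 deviated in opposite directions (Pearson r = -0.84 and Spearman rho = -0.81 over 8 libraries), as did Arntl and Per3 (r = -0.82 and rho = -0.64). Dbp deviated with Per1 (r = 0.84 and rho = 0.90) and with Tef, a close relative of Dbp (r = 0.77 and rho = 0.71), and weakly with Nr1d1 (r = 0.26 and rho = 0.33). Of the glucocorticoid-responsive genes described below, Tsc22d3 (r = 0.84 and rho = 0.95) and Klf9 (r = 0.83 and rho = 0.83) lay above Tef. The others compared with Dbp lay below Tef, at r of 0.14 to 0.56. Against the other members, r for Arntl was -0.73 with Per2, -0.50 with Clock, -0.47 with Cry2, -0.22 with Cry1, -0.19 with Per1, -0.17 with Dbp and 0.04 with Nr1d1. The 5 genes most like Dbp by this measure were Nrbf2 (r = 0.98), Cyb5d1 (r = 0.95), Wdr7, Cd36 and Anapc15 (r = 0.94 each), with Per1 at rank 68 and Tef at rank 179 of the same genes. Those most like Arntl were Tecpr1 (r = 0.99), Ankrd10 and Bzw2 (r = 0.97 each), Rasal3 and Aim2 (r = 0.96 each). These values are descriptions without a test. They rest on 8 points that share libraries and size factors, and the genes were picked from 11039 for their high values.

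Compared per length of merged exons, the order of the genes was led by Nr1d1 and closed by Arntl in both groups. Levels are given as normalised counts per kilobase of merged exons. In naive cartilage Nr1d1 stood at 191 ± 36.4, Dbp at 119 ± 32.7, Per1 at 95.5 ± 45.1 and Nr1d2 at 90.6 ± 9.39 (SD, n = 4). Cry1 followed at 70.7, Cry2 at 62.2, Clock at 44.9, Per3 at 40.9, Per2 at 39.0 and Arntl at 36.1. The only neighbours in this order whose libraries did not overlap were Nr1d2 above Cry1 and Cry2 above Clock.

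In DMM cartilage Nr1d1 stood at 325 ± 32.5, Dbp at 273 ± 63.5, Nr1d2 at 175 ± 34.7 and Per1 at 140.0 ± 50.8 (SD, n = 4). Cry2 followed at 97.3, Per3 at 64.7, Clock at 64.6, Per2 at 62.0, Cry1 at 57.7 and Arntl at 35.0. Cry1 moved from the rank of 5 to that of 9. Neighbours did not overlap for Cry2 above Per3 and Cry1 above Arntl. With the longest transcript as length, only 4 of the 10 genes kept their place in the order of the means over all 8 libraries. Dbp then stood above Nr1d1 in DMM cartilage. Arntl ranked 7 in naive and 8 in DMM cartilage by that length, and Per2 was last, at rank 10, in both groups. The order thus rests on the length chosen.

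**Figure D4:**
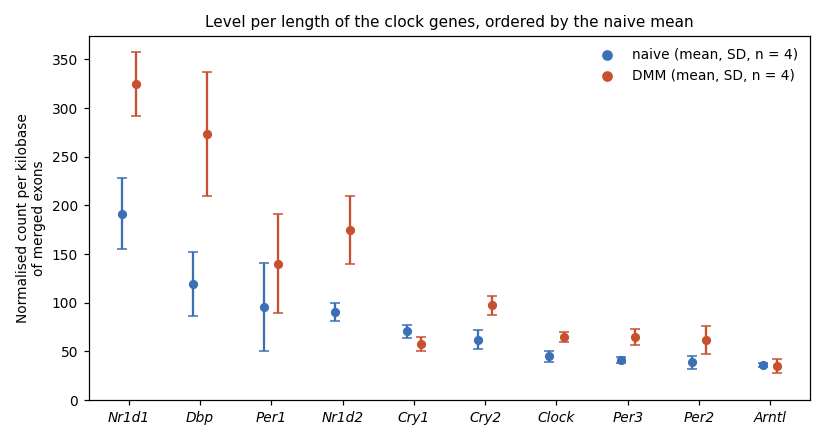
Normalised count per kilobase of merged exons (y axis, from 0) of the 10 clock genes, ordered by the naive mean (x axis). Points are means and bars SDs of 4 mice, naive and DMM. By this length Nr1d1 stands first, at 191 in naive and 325 in DMM cartilage, and Arntl last, at 36.1 and 35.0. Arntl is not last when the longest transcript is the length.

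Sequence shared with other genes touched few of the clock genes. Dbp shares 16.9% of its 31-base words with other genes, the most with Sphk2, a sphingosine kinase gene. The log2 fold change of Sphk2 was 0.07 (DESeq2 adjusted p = 0.776). Nr1d1 shares 7.85% with other genes, the most with Thra, the thyroid hormone receptor gene next to it. The log2 fold change of Thra was 0.22 (DESeq2 adjusted p = 0.221). Nr1d2 and Cry2 share 9.51% and 4.11% with other genes, and the other members share under 1%. The genes sharing the most with Nr1d2 and Cry2 had at most 8.60 and 31.6 normalised counts. The counts of any further genes that share words were not read. Whether strand was used in counting is not given in the sources used here, so reads of Nr1d1 and Thra in their shared part cannot be told apart by strand.

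A further list of 17 clock genes held other activators, receptors, D-box factors, repressors and the enzymes that mark PER and CRY for breakdown. Of the 16 tested, 4 were called higher in DMM and 2 lower, with a median log2 fold change of 0.08, beside 7.75% and 5.92% of all genes tested and their median of -0.02. Bhlhe40, which encodes the E-box repressor DEC1, had 506, 564, 599 and 751 normalised counts in naive and 1030.0, 1185, 1699 and 1204 in DMM libraries. Its groups did not overlap, and DMM replicate 3 was the highest, as for Dbp. Its fitted log2 change was 1.08 (SE 0.18, DESeq2 adjusted p = 1.65e-07). Its relative Bhlhe41 rose by 0.59 (SE 0.19, DESeq2 adjusted p = 0.0108), a change at the fold threshold that was called in 3 of the 8 fits without a library.

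Rora, the receptor that competes with the NR1D proteins at ROR elements and activates Arntl, had 334, 419, 494.5 and 493 normalised counts in naive and 808, 727, 1237 and 888 in DMM libraries. The groups did not overlap. DMM over naive came to 1.07 on the log2 scale (SE 0.19, DESeq2 adjusted p = 1.26e-06), so that both the activator and the repressors of Arntl were higher while Arntl had no detectable difference. Tef, the D-box activator related to Dbp, had 545, 422, 378 and 541 normalised counts in naive and 877, 1002, 962 and 838 in DMM libraries. It rose by 0.96 on the log2 scale (SE 0.15), and its DESeq2 adjusted p of 8.02e-09 was the smallest among all the clock genes listed.

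Hlf, another D-box activator, stood at 0.49 on the log2 scale (DESeq2 adjusted p = 0.0915), and Nfil3, which represses at the same D-boxes, at -0.19 (DESeq2 adjusted p = 0.497). Both were outside the naming rule, and their values were seen before they were chosen. Arntl2 and Timeless had log2 fold changes of -0.61 each (DESeq2 adjusted p = 0.0243 and 0.000429). Timeless acts at the replication fork in mammals, and its place in their clock is less settled. Neither decrease was called with TMM factors, total count scaling or limma-voom, and with a library left out they kept the call in 3 and 5 of 8 fits. Fbxl21 had too few counts for an adjusted p.

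**Figure D5:**
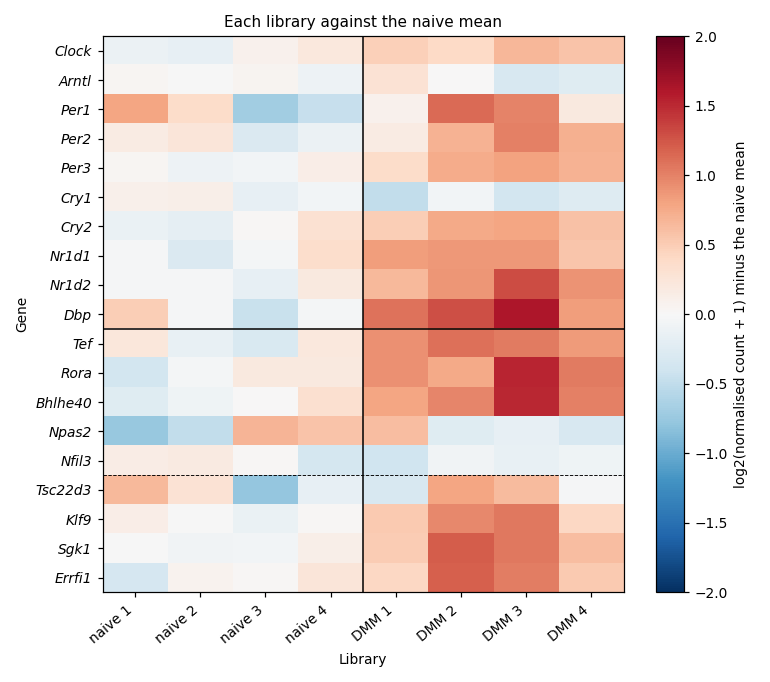
Log2(normalised count + 1) of each library minus the naive mean (colour) for the clock genes, 5 further clock genes and 4 glucocorticoid-responsive genes (rows) in the 8 libraries (columns). The lines part the naive from the DMM libraries and the gene lists. DMM replicate 3 is the deepest red for Dbp, Nr1d2, Rora and Bhlhe40, and Per1 and Tsc22d3 share their order of libraries within each group.

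Of 8 output genes reported downstream of the clock in other tissues, 2 were called higher in DMM (7.75% of all genes tested), 0 lower (5.92% of all), and the median log2 fold change was 0.01 (-0.02 over all). Cdkn1a, the cell cycle inhibitor p21, rose by 0.88 (SE 0.17, DESeq2 adjusted p = 6.72e-06) and Tspan4, a tetraspanin, by 0.82 (SE 0.15, DESeq2 adjusted p = 6.18e-06). The groups did not overlap for either. Klf10, a TGF-beta-induced factor, had a log2 fold change of -0.52 and was not called (DESeq2 adjusted p = 0.0674).

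Glucocorticoids set peripheral clocks and induce Per1 directly, so 12 glucocorticoid-responsive genes were read beside it. Of these, 3 were called higher and 0 lower, against 7.75% and 5.92% of all genes tested, and the median log2 fold change was 0.33, against -0.02. Sgk1, a kinase gene of ion transport, rose by 0.87 (SE 0.17, DESeq2 adjusted p = 1.38e-05). Errfi1, an inhibitor of EGF receptor signalling, rose by 0.81 (SE 0.20, DESeq2 adjusted p = 0.000666) and Klf9, a zinc-finger factor, by 0.76 (SE 0.17, DESeq2 adjusted p = 0.000106). All 3 were called in the 8 fits without a library. The other 9 were not called. Among these was Fkbp5, a feedback gene of the receptor that was chosen after its values were seen, at -0.19 on the log2 scale (DESeq2 adjusted p = 0.388).

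Tsc22d3, which encodes the glucocorticoid-induced protein GILZ, followed the spread of Per1 from mouse to mouse. This gene is counted in both the list of clock output genes and that of glucocorticoid-responsive genes. It was singled out after its values were seen. Its normalised counts were 1284, 999, 481 and 731 in naive and 655, 1409, 1270.2 and 809 in DMM libraries. Within each group the order of the libraries was that of Per1, from replicate 3 to 1 in naive and from replicate 1 to 2 in DMM mice. Its deviations stood at rank 3 of the 11039 genes by likeness to those of Per1 (Pearson r = 0.97 and Spearman rho = 0.98 over 8 libraries), after Psmd5 and Utp18. Tsc22d3, at 0.25 on the log2 scale, was not called (DESeq2 adjusted p = 0.726). The log2 ratio of Per1 to Tsc22d3 was between -1.02 and -0.60 in naive and between -0.52 and -0.33 in DMM libraries, with no overlap and no test.

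Of 11 immediate early genes, which respond to handling, load and injury within minutes, 4 were called higher and 0 lower, where the shares over all genes tested were 7.75% and 5.92%. Their median log2 fold change was 0.53, and that of all genes -0.02. Egr3 rose by 1.05 (SE 0.26, DESeq2 adjusted p = 0.000995), Jun by 0.82 (SE 0.18, DESeq2 adjusted p = 0.000103), Nr4a1 by 0.80 (SE 0.18, DESeq2 adjusted p = 0.000267) and Atf3 by 0.76 (SE 0.26, DESeq2 adjusted p = 0.0186). Leaving out a library kept the call of Atf3 in 4 of 8 fits and that of the others in all 8. Fosb, at 0.90, was not called (DESeq2 adjusted p = 0.128).

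The counts of the clock genes were not split by the cell types that the caps could hold, and the makeup of the libraries moved with the groups. In bulk samples, more cells of a type and more RNA per cell cannot be told apart. Chondrocyte markers took 0.284 to 0.473% of counts in naive and 0.754 to 1.32% in DMM libraries (p = 0.0286 by a two-sided exact permutation test, the least the design allows), and 6 of the 11 tested were called higher. Col2a1 was the most abundant of them, at 23979 ± 9798 and 63821 ± 27070.1 normalised counts (SD, n = 4), while Matn1 was near 0 in DMM libraries, at 0.889 ± 0.688. Osteoblast and osteocyte markers, led by Ibsp, took 0.121 to 0.182% and 0.294 to 0.540% (exact permutation test, two-sided p = 0.0286), with 7 of 8 called higher.

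Neutrophil markers, led by S100a9, took 0.905 to 1.26% of counts in naive and 0.426 to 0.897% in DMM libraries (p = 0.0286 by the same exact permutation test), with 11 of 12 called lower. Erythroid markers, led by Hba-a2, took 1.07 to 1.80% and 0.593 to 1.26% (exact permutation test, two-sided p = 0.0857), with 7 of 8 called lower. DMM replicate 3 had an erythroid share of 1.26%, within the naive range, and also the highest Dbp, Nr1d2 and Per2 of its group. The calls for Dbp, Nr1d1, Nr1d2, Per3 and Cry2 were made without that library too, whereas Per2 fell below the fold threshold, at 0.54. Of 8 markers tested for each of B cells, macrophages and endothelium, 0, 0 and 3 were called higher and 0, 1 and 1 lower. Of the 8 skeletal muscle markers only 3 had enough counts for an adjusted p, of which 1 was called higher and 0 lower. The shares of all genes tested that were called higher and lower, 7.75% and 5.92%, are the background for each of these marker lists. The part of these changes in makeup in the values of the clock genes was not tested.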

How the data were processed

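Libraries were prepared from 8 single mice, and the groups follow the labels. Per the labels and the methods of the study, the authors trimmed the reads, pseudo-aligned them with Kallisto and summed transcripts to genes with tximport, and the deposited values are estimated counts, of which 30.8% are not whole at a tolerance of 0.001. A read that matches more than 1 transcript is shared among them by Kallisto. The methods name GRCm38, whereas the labels list a human build. The labels name a low input kit from NEB and the methods a SMART-Seq kit, and whether the counting used strand is not given in the sources used here. Total counts were 12479443 to 16548002 per library and did not differ between groups (exact permutation test, two-sided p = 0.40).

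The estimated counts were rounded and tested by the Wald test of DESeq2 (version 1.42.0, under R 4.3.3), the test that the methods of the study name. Size factors by median of ratios, unshrunken log2 fold changes and a fit with no covariates were used here. All genes entered the fit, and adjustment ran over the 17760 genes that passed independent filtering. Intervals are the estimate ± 1.96 SE, unadjusted. Scripts were tested on simulated data. Shares of counts were compared by a two-sided exact permutation test over 70 assignments. Coordinates are from GENCODE vM21 on GRCm38, and promoter windows from RefSeq on GRCm38.p6. Likeness used log2(normalised count + 1) for genes with a mean of at least 100.

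Named genes are all 10 clock genes, every called member and the 3 largest absolute changes of the other lists, the 5 genes most like Dbp and Arntl, and the most abundant markers. The members and lists were chosen with earlier results of these data known. Alternatives were edgeR version 4.0.16, limma-voom (version 3.58.1), TMM factors, total count scaling, other filters, no fold threshold, the replicate number as a block and each library left out.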

Additional observations from a re-analysis of the deposited data

Results flagged for a closer look

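A gap of a single library from the other 3 of its group, larger than Dixon's 95% limit, was found in 7 of 84 groups, where chance gives about 1 in 20. Nr1d1 in DMM replicate 4 had 850.2 normalised counts, below the 1036 to 1057 of the other DMM libraries and above every naive library. Bhlhe41 in naive replicate 1 had 649.9 normalised counts against 483 to 505. Jun in DMM replicate 4 had 534 normalised counts against 743 to 771. The log2 ratio of Per1 to Tsc22d3 in naive replicate 4 was -1.02 against -0.66 to -0.60. The erythroid list took 1.26% of counts in DMM replicate 3 against 0.593 to 0.647%. The skeletal muscle list took 0.00356% of counts in naive replicate 3 against 0.000797 to 0.0012%, and 0.00990% in DMM replicate 1 against 0.000953 to 0.00149%.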

How the results depend on the processing

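The number of clock genes called was 5 to 7 over all alternatives, each higher in DMM, and the calls of Dbp, Nr1d1, Nr1d2, Per3 and Cry2 held in every one. The log2 fold change of Arntl was 0.11 with total count scaling and -0.18 to 0.038 when a library was left out, and was not called in any. Without the fold threshold 4010 genes of the table were called. Total count scaling called 2030 genes higher and 489 lower, against 1377 and 1052. With the longest transcript as length 4 clock genes kept their place. The balance of Per3, Nr1d1, Nr1d2 and Dbp, all of them called higher, against Arntl and Clock was 0.66, against 1.27 for Dbp and Arntl alone. Libraries of the same number deviated with r of 0.05, 0.06, -0.12 and 0.12, and those of different numbers with r of -0.16 to 0.21. These values give no sign that the numbers pair the mice but cannot exclude it. With a replicate block 2081 genes and 6 clock genes were called. With 4 mice per group, differences such as those of Per1 and Cry1 are not resolved, and depth per library was similar. The cause of the changes between settings was not tested.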
